A study of Mus musculus with 12 samples.

Results

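Chaperones keep the proteins of a cell folded, and the genes of their main ATP-driven families are described here: the Hsp70 proteins with their Hsp110 relatives, the DnaJ (Hsp40) co-chaperones, and the chaperonins of the cytosol and the mitochondrion. Members were the loci of the deposited expression table that carry a protein-coding label and a name beginning with Hspa, Hspd, Hspe or Hsph and a digit, Dnaja, Dnajb or Dnajc and a digit, or Cct2 to Cct8. The rule found 69 of the table's 40597 loci, 21852 of which are protein-coding. They comprise 11 Hsp70, 3 Hsp110, 3 DnaJA, 13 DnaJB and 28 DnaJC genes, 2 genes of the mitochondrial chaperonin and 9 of the cytosolic chaperonin CCT. The gene Dnaja3 was left out by the rule because its locus, joined to Vasn, carries no label in the table, and so were 9 pseudogenes with names of these families. RNA was sequenced from neurospheres, floating clusters of neural stem and progenitor cells, raised from E14.5 (embryonic day 14.5) hypothalami of C57Bl/6 mice. The 4 groups of 3 libraries each were male cultures given ethanol vehicle, male cultures given dexamethasone (a synthetic glucocorticoid), and female cultures given either. Exposure lasted 4 hours at passage 3, and the dexamethasone concentration was 100 nM. The labels call the 3 libraries of a group biological replicates without saying whether they came from separate fetuses, litters or cultures, so p-values measure the spread between these libraries.

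Hsp70 proteins grip exposed hydrophobic stretches of unfolded chains and let them go in a cycle driven by ATP. DnaJ proteins bring the chains and trigger the hydrolysis of ATP through their J domain, and Hsp110 proteins exchange the nucleotide and so release the chain. Chaperonins are double-ring barrels that enclose a chain while it folds: Hsp60 (Hspd1) with its lid Hsp10 (Hspe1) in mitochondria, and CCT for actin, tubulin and other proteins in the cytosol. The glucocorticoid receptor itself is folded by Hsp70 and Hsp40 and held ready for hormone by Hsp90, so dexamethasone acts on a client of this machinery. Heat-inducible chaperone genes are typically preceded by heat shock elements, repeats of NGAAN read by the factor Hsf1, and chaperone genes of the endoplasmic reticulum (ER) by ER stress response elements.

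Sequence around the start site was available for 57 of the 69 members, in RefSeq windows on the GRCm38.p6 build from 250 bases before to 50 bases after each annotated start. Both strands were searched for 4 motifs, each made of short units (N is any base) a fixed number of bases apart. The heat shock element of 3 units, GAA, TTC and GAA with 2 bases between neighbours, was found in 4 of 57 members (7.02%) against 0.662% of 27025 genes with a window: Dnajb6, Hspd1, Hspe1 and Hsph1. Its shorter form, GAA and TTC with 2 bases between, which lies inside the longer one, was found in 12 members (21.1%) against 9.04% of genes. The ER stress response element, CCAAT and CCACG with 9 bases between, was found in Hspa5 and Dnajc3, 3.51% of members against 0.137% of genes. A palindromic glucocorticoid response element, GNACA and TGTNC with 3 bases between, was found in 0 of 57 members and in 0.537% of genes. A match describes letters in a window, and neither a match nor its absence says whether a factor binds. The matches to the longer heat shock element and the ER element are printed in 30 bases each, because these are the motifs that stress factors read, 5′ to 3′ on the strand of the gene, with the matched motif in capitals. Hspd1 and Hspe1 lie head to head, so both lines show the same site, at chr1:55088053-55088082, read from opposite strands. The Hsph1 site lies at chr5:149636287-149636316 (minus strand), that of Dnajb6 at chr5:29735844-29735873 (plus), that of Hspa5 at chr2:34772020-34772049 (plus) and that of Dnajc3 at chr14:118937822-118937851 (plus). Hsph1 has its site wholly after the annotated start of the window, while the other sites lie before theirs. GENCODE M21 places the Dnajc3 site outside exons and the others within annotated exons, which for the shared site is an exon of Hspd1.
Hspd1: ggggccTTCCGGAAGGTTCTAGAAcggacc
Hspe1: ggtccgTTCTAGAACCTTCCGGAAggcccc
Hsph1: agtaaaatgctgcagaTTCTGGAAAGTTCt
Dnajb6: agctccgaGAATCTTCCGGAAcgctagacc
Hspa5: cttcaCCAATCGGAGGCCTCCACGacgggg
Dnajc3: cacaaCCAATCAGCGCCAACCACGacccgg

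Facts of the whole table bear on what follows. Values are FPKM, read-pair abundances corrected for transcript length and for the size of each library, so the depth of each library is unknown. Between 13755 and 14826 loci stood above 1 FPKM per library, and loci without a gene name took 11.6% to 74.99% of the FPKM, most in male vehicle library 3 (74.99%) and male dexamethasone library 2 (53.1%). Xist, the RNA of the silenced X chromosome, lay between 136 and 328 FPKM in the female libraries and at 0.0466 FPKM or less in 4 male libraries, but at 3.04 FPKM in male vehicle library 2 and 14.1 FPKM in male dexamethasone library 2. The cultures had all 10 neural stem markers and 4 of 10 neuronal markers at a mean of 1 FPKM or more, against 0 of 8 microglial, 0 of 6 erythroid and 2 of 10 endothelial or mural markers. Of the 10 neural stem markers, Msi1 (log2 fold change -0.64) and Nr2e1 (-0.57) fell at an adjusted p under 0.05 (limma). That threshold was met by 1.53% of all loci at a mean of 1 FPKM or more, in either direction. The median log2 fold change was -0.213 over the 10 markers and -0.00674 over those loci. The summed level of the markers, most of it Fabp7 (mean 3503 FPKM) and Vim (2497 FPKM), lay between 6108 and 7482 FPKM in vehicle libraries. In dexamethasone libraries it lay between 5848 and 7588 FPKM. Among 6 known glucocorticoid targets, listed with earlier results of these data known and given here as a description, the mean level of Klf9 was 7.04 FPKM under vehicle and 31.0 FPKM under dexamethasone, and that of Per1 was 5.39 and 23.0 FPKM. In bulk RNA, fewer cells of a type and less RNA per cell cannot be told apart.

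Most members were expressed, over a wide range of levels. The level required for testing, a 12-library mean no lower than 1 FPKM, was reached by 56 members: 7 of 11 Hsp70, 3 of 3 Hsp110, 3 of 3 DnaJA, 10 of 13 DnaJB, 24 of 28 DnaJC, 2 of 2 mitochondrial chaperonin and 7 of 9 CCT genes. The median member stood at 18.0 FPKM. On the FPKM scale, which is per transcript length, the chaperonins formed the upper tier: Cct8 at 370.4, Cct3 at 333, Hspe1 at 284, Cct6a at 253, Cct5 at 252, Hspd1 at 232, Cct2 at 229.7, Cct4 at 187 and Cct7 at 141 FPKM. Cct8 lay at the 99.2 percentile of protein-coding loci. The ER Hsp70 Hspa5 (BiP), at 251 FPKM, and the mitochondrial Hsp70 Hspa9 (mortalin), at 191 FPKM, were in the same tier, as was the Hsp110 gene Hspa4 (Apg-2), at 149.9 FPKM. Over all their members, the Hsp70 family had a median of 5.58 FPKM and the Hsp110 family one of 32.5 FPKM. Co-chaperones all lay below the upper tier, with family medians of 71.1 FPKM for DnaJA, 11.7 for DnaJB and 13.4 for DnaJC. The most abundant of them were Dnajc7, which binds both Hsp70 and Hsp90, at 100.5 FPKM and Dnaja2, a partner of cytosolic Hsp70, at 91.1 FPKM. Dnajb8, Dnajc5b and Dnajc5g are listed at 0 in all 12 libraries.

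**Figure D1:**
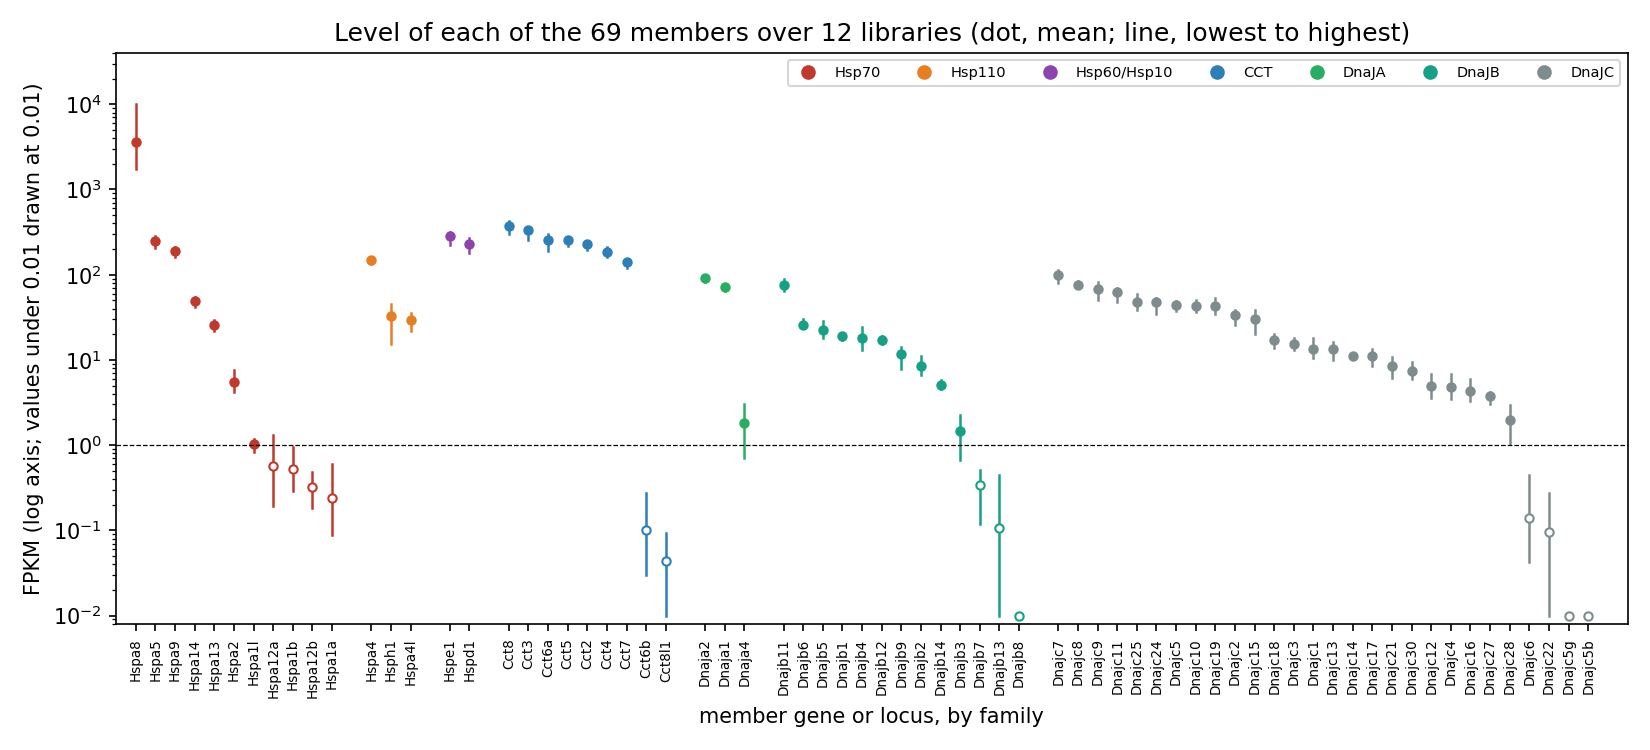
Level of each of the 69 members in FPKM on a log axis, grouped by family; dots are means over the 12 libraries, lines run from the lowest to the highest library, and open dots mark the 13 members under a mean of 1 FPKM. The 9 tested chaperonin genes sit between 141 and 370.4 FPKM, while the means of the Hsp70 family run from 3627 FPKM at the Hspa8 locus to 0.239 FPKM at Hspa1a.

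Levels were mostly steady across libraries. For the 33 members at 20 FPKM or more, the highest library exceeded the lowest by a median of 1.41 times, beside 1.48 times for all 4214 protein-coding loci of that level. Among these 33 the widest range was at the locus of Hspa8, the constitutive cytosolic Hsp70 (Hsc70; chr9:40800984-40810087), whose highest library was 5.84 times its lowest. In the table this locus is joined to Snord14c, Snord14d and Snord14e, small nucleolar RNAs encoded in its introns, so its FPKM cannot be ascribed to the Hspa8 message. Among 18 protein-coding loci of that level joined to a small nucleolar RNA, the median ratio was 1.78, and 1 locus had a larger ratio than Hspa8. The joined loci of Dnaja1 (with Mir207), Cct6a (with Snora15) and Dnajc25 (with Gng10 and Gm20503) carry the same doubt. The Hspa14 locus has more than 1 gene identifier under a single name, so the doubt extends to it.

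The main comparison asked which members differed between dexamethasone and vehicle, averaged over the sexes. No member was called by limma at an adjusted p under 0.05: 0 of 56, while 1.53% of the 14931 tested loci were called. At an unadjusted p under 0.05 there were 5 members, beside 13.6% of all tested loci: Cct2, Dnajb4 and Hspa14 with positive and Dnajb2 and Dnajc13 with negative estimates. The smallest adjusted p of any tested member was 0.229. This fit left out the replicate numbers. With them entered as a block Dnajb4 was called, as the closing section gives beside the count over all loci. Estimated log2 fold changes, on the log2(FPKM + 1) scale, had a median of 0.0249 over the members and -0.00674 over all tested loci, and the quartiles of the members lay at -0.0431 and 0.111 where those of all loci lay at -0.146 and 0.115. Estimates were above 0 for 34 members and below 0 for 22. Intervals tell how large an effect the data leave room for. For 51 of 56 members the 95% interval lay wholly within 0.5 either side of 0, as it did for 58.7% of all tested loci and 70.9% of the protein-coding ones. The members with wider intervals were the Hspa8 locus, Hsph1, Dnajb4, Dnajc15 and Dnajc28.

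**Figure D2:**
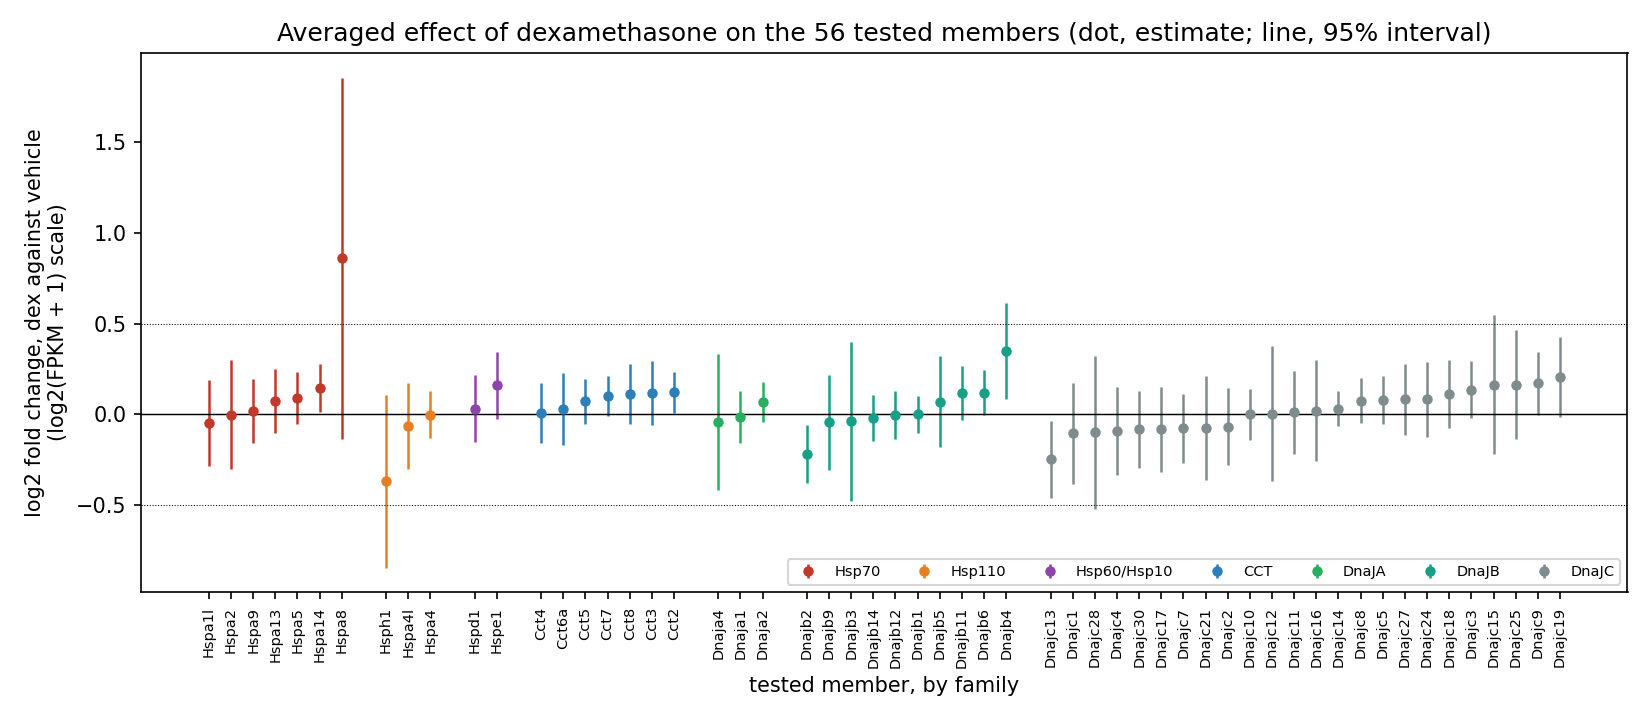
Averaged effect of dexamethasone on each of the 56 tested members as a log2 fold change on the log2(FPKM + 1) scale (dots) with its 95% interval (lines), ordered within families; dotted lines mark 0.5 either side of 0. Most intervals are narrow and lie around 0, and the Hspa8 locus has by far the widest.

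The stress-inducible Hsp70 genes were near the floor in every library. Hspa1a (chr17:34969190-34972156, minus strand) ranged from 0.0883 to 0.599 FPKM over the 12 libraries. Its neighbour Hspa1b (chr17:34956436-34959238, minus strand) ranged from 0.292 to 0.96 FPKM. The highest value of both came from female vehicle library 1, and their dexamethasone and vehicle libraries overlapped. These 2 genes encode nearly the same protein from nearly the same sequence, so reads can be split between them and each value is uncertain. The likeness extends upstream: the 250 bases before their starts, at chr17:34972157-34972406 for Hspa1a and chr17:34959239-34959488 for Hspa1b (both minus strand, outside annotated exons), differ at 3 bases. Both are printed because they hold a heat shock element of 2 units, in capitals, at genes that were hardly expressed here.
Hspa1a: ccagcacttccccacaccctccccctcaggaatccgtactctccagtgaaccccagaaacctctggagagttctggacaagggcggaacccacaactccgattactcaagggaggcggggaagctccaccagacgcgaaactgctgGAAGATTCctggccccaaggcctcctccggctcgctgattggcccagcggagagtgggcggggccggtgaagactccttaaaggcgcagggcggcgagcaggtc
Hspa1b: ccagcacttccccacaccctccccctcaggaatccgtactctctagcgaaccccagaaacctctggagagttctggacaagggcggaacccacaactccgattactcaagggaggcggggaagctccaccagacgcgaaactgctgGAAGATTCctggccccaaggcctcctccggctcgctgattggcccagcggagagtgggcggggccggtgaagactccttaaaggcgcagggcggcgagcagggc

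Hspa12a, a distant Hsp70 relative that is known from brain, separated the treatments completely, at levels below the one required for testing. It is singled out after its values were seen. In the table its locus spans chr19:58795751-58860984. In male vehicle libraries it stood at 0.196, 0.296 and 0.201 FPKM and in male dexamethasone libraries at 0.645, 0.558 and 0.475 FPKM. Female vehicle libraries had 0.396, 0.446 and 0.313 FPKM and female dexamethasone libraries 1.32, 1.04 and 0.985 FPKM. Every dexamethasone library lay above every vehicle library, and the dexamethasone mean was 2.72 times the vehicle mean. This complete separation occurred in 2 of the 66 members that were not at 0 throughout, Hspa12a and Cct2, beside 0.955% of 27636 loci, and separation the other way in 0 members beside 0.532%. A limma fit without the filter on low values, over all 40597 loci, called Hspa12a and no other member, where 0.431% of loci were called. Its log2 fold change was 0.47 (SE 0.06, 95% interval 0.33 to 0.62, adjusted p = 0.0172, limma). That call was lost with a robust variance (adjusted p = 0.252), without male vehicle library 1 (0.0608), male vehicle library 3 (0.0649), male dexamethasone library 2 (0.052) or female vehicle library 3 (0.0601), and without male vehicle library 3 and male dexamethasone library 2 together (0.163). Entering the replicate number as a block also lost it, as the closing section gives. Over 20 alternatives, all chosen after the values were seen, the adjusted p ran from 0.00282 to 0.252 and 13 kept the call. Since a pseudocount of 1 exceeds most of these values, the fold depended on it: 0.70 at a pseudocount of 0.5 and 1.16 at 0.1.

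By sex, the unfiltered estimate for Hspa12a was 0.34 in males (adjusted p = 0.564) and 0.61 in females (adjusted p = 0.0551), and neither was called where 0.0690% and 0.148% of loci were. The difference of these effects was 0.27 (95% interval -0.02 to 0.55, adjusted p = 1, limma), a contrast in which 0.0271% of loci were called. The 220 bases that begin 250 bases before the start matching the table's locus, at chr19:58861015-58861234 (minus strand, outside annotated exons), are shown because the treatments separated completely at this gene. They hold none of the searched motifs.
Hspa12a: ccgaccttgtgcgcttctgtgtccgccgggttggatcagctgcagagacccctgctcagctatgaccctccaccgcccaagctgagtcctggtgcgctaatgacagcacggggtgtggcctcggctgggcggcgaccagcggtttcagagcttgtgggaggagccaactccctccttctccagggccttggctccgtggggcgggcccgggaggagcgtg

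The Hspa8 locus gave a large estimate with little certainty. Its libraries stood at 4373, 1722 and 1808 FPKM under vehicle and 4552, 2305 and 10052 FPKM under dexamethasone in males. The female ones stood at 1939.6, 2271 and 1969 FPKM under vehicle and 8049, 2449 and 2032 FPKM under dexamethasone. Male dexamethasone library 3 and female dexamethasone library 1 were high, male dexamethasone library 1 lay just above the highest vehicle library, and the other 3 dexamethasone libraries lay within the vehicle range. The log2 fold change was 0.86 with a 95% interval of -0.14 to 1.86 (adjusted p = 0.428, limma). In 6 of 6 same-numbered comparisons the dexamethasone library was the higher, a tally not counted over all loci. Without female dexamethasone library 1 the estimate was 0.55. How much of this spread belongs to the small nucleolar RNAs was not tested.

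**Figure D3:**
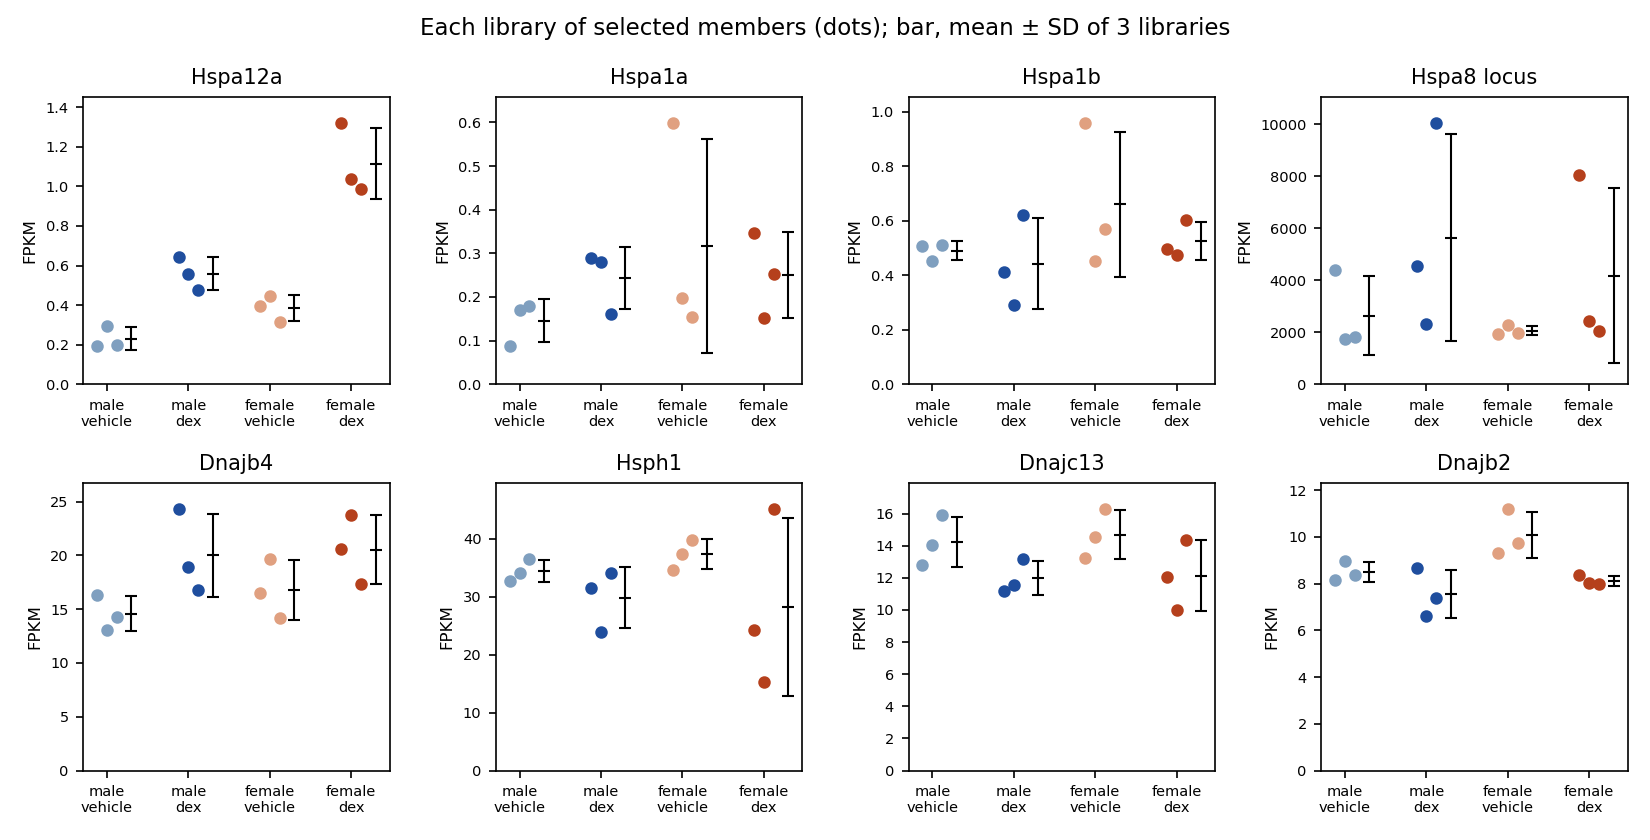
FPKM of 8 members in each library (dots) by sex and treatment, on linear axes from 0, with the mean and SD of 3 libraries beside each group. Hspa12a is the panel in which all dexamethasone libraries lie above all vehicle libraries. The Hspa8 locus, Hspa1a and Hsph1 show a wide spread within some groups.

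The other tested Hsp70 genes had small estimates. Hspa5, the ER chaperone that is raised when proteins misfold there, had 255 ± 10.6 FPKM under vehicle and 274 ± 11.8 FPKM under dexamethasone in males (SD, n = 3), and 232 ± 24.7 and 244 ± 13.7 FPKM in the same female groups. Its averaged log2 fold change was 0.09 (95% interval -0.05 to 0.23, adjusted p = 0.563, limma), and it turned to -0.03 under quantile normalization. Hspa9, which drives protein import into mitochondria, gave 0.02 (95% interval -0.16 to 0.19), and -0.09 under quantile normalization. Hspa14, an Hsp70 that works at the ribosome, gave 0.15 (95% interval 0.01 to 0.28, adjusted p = 0.321, limma). The male vehicle libraries of Hspa14 were at 46.8, 45 and 46.3 FPKM and the male dexamethasone ones at 50.1, 49.9 and 51.6 FPKM. In females the values were 52.6, 41.4 and 47.2 FPKM and 54.9, 52.5 and 50.1 FPKM, so the male groups did not overlap and the female groups did, female vehicle library 2 being the lowest of all. How many of all loci separate within a single sex was not counted.

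The nucleotide exchange factors of the Hsp110 family gave 3 estimates below 0, none called. That of Hspa4 was next to 0, at -0.0017 (95% interval -0.13 to 0.13). Hspa4 was the steadiest, at 156 ± 5.52 and 153 ± 5.9 FPKM in male vehicle and dexamethasone cultures (SD, n = 3) and 144 ± 9.57 and 147 ± 12.2 FPKM in female ones. Hsph1 (Hsp105; chr5:149614287-149636376, minus strand), a heat-inducible member, gave -0.37 (95% interval -0.84 to 0.11, adjusted p = 0.480, limma). Its male vehicle libraries had 32.7, 34.1 and 36.5 FPKM and its male dexamethasone libraries 31.5, 24 and 34.1 FPKM. The female vehicle libraries had 34.7, 37.5 and 39.9 FPKM. Female dexamethasone libraries ranged from 15.3 to 45.2 FPKM, the lowest and the highest values of all 12, with the third at 24.2 FPKM. The estimate was -0.57 (adjusted p = 0.0915, limma) without the highest of these, female dexamethasone library 3, and -0.19 without the lowest, female dexamethasone library 2. Hspa4l, the third gene, gave -0.07 (adjusted p = 0.814, limma).

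Among DnaJ genes, Dnajb4 had the largest estimate. Dnajb4 (Hlj1; chr3:152178511-152210302, minus strand) encodes a partner of cytosolic Hsp70. Its male vehicle libraries stood at 16.3, 13.1 and 14.3 FPKM and its male dexamethasone libraries at 24.3, 18.9 and 16.8 FPKM. In females, vehicle gave 16.5, 19.7 and 14.2 FPKM and dexamethasone 20.6, 23.8 and 17.3 FPKM. The 3 male dexamethasone libraries were above the 3 male vehicle libraries, while the female groups overlapped. The male groups of Cct2 and Cct7 were also apart, and such separation within a sex was not counted over all loci. The averaged log2 fold change was 0.35 (SE 0.12, 95% interval 0.08 to 0.61, adjusted p = 0.247, limma). In 6 of 6 comparisons the dexamethasone library was higher than the same-numbered vehicle library. So it was for Cct2, Cct7, Dnaja2, Dnajb6, Dnajc3, Dnajc9, Dnajc15, the Dnajc25 locus and Hspa14, as well as the Hspa8 locus and Hspa12a. The share of all loci with such a tally was not counted, and the labels do not say that the numbers pair libraries. Dnajb4 was called only when the replicate number entered as a block, as the closing section gives. Its close relative Dnajb1, the main heat-inducible Hsp40, was nearly level: 19.8 ± 0.296 and 19.1 ± 0.513 FPKM in male and 18.3 ± 1.1 and 18.9 ± 0.739 FPKM in female vehicle and dexamethasone cultures (SD, n = 3). The cytosolic Dnaja1, at 71.1 FPKM over all libraries, gave an estimate of -0.01.

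The lowest DnaJ estimates were those of Dnajc13 and Dnajb2. Dnajc13 (chr9:104151282-104262930, minus strand) encodes an endosomal J protein that acts in membrane recycling, and its log2 fold change was -0.25 (95% interval -0.46 to -0.03, adjusted p = 0.302, limma). In males the vehicle libraries had 12.8, 14 and 15.9 FPKM and the dexamethasone libraries 11.2, 11.6 and 13.2 FPKM. The female values were 13.2, 14.6 and 16.3 FPKM under vehicle and 12, 10 and 14.4 FPKM under dexamethasone. Each dexamethasone library was below the vehicle library of its number, in 6 of 6 comparisons, although the groups overlapped. That tally was not counted over all loci either. Dnajb2 (chr1:75236406-75245692), a J protein abundant in neurons that passes clients to the proteasome, gave -0.22 (95% interval -0.38 to -0.06, adjusted p = 0.229, limma). Its means were 8.5 ± 0.418 and 7.56 ± 1.03 FPKM in male vehicle and dexamethasone cultures (SD, n = 3). In female cultures they were 10.1 ± 0.995 and 8.12 ± 0.209 FPKM, and there all 3 dexamethasone libraries were below the vehicle libraries. Separation within a sex, again, was not counted over all loci.

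The other DnaJC genes with the largest estimates in either direction stayed between -0.10 and 0.21, and none was called. On the positive side were Dnajc19 (0.21) and Dnajc15 (0.16) of the mitochondrial import motor, Dnajc9 (0.17), a histone chaperone partner, and the Dnajc25 locus (0.16). On the negative side were Dnajc1 (-0.10), an ER membrane J protein, Dnajc28 (-0.10), Dnajc4 (-0.09), Dnajc17 (-0.08), a splicing-related J protein, and mitochondrial Dnajc30 (-0.08). Single libraries moved several of these by more than 1.5 times. Leaving out 1 library gave -0.20 to -0.01 for Dnajc1 (without male vehicle libraries 1 and 3 in turn), -0.25 to -0.02 for Dnajc28 (female vehicle 3 and 1) and -0.19 to -0.04 for Dnajc4 (female vehicle 3 and 2). The same gave -0.15 to -0.02 for Dnajc17 (male dexamethasone 1 and female vehicle 1) and -0.15 to -0.01 for Dnajc30 (female vehicle 3 and 2). Dnajc15 ran from 0.06 without male vehicle library 3 to 0.30 without male dexamethasone library 3, and turned to -0.0095 without male vehicle library 3 and male dexamethasone library 2 together. The Dnajc25 locus ran from 0.10 without female vehicle library 3 to 0.25 without female dexamethasone library 3. Of 8 J proteins of the ER and 6 of the mitochondrion, all were tested and 0 were called in either set, beside 1.53% of all tested loci. Their median log2 fold changes were -0.0113 and 0.135, beside -0.00674 over all tested loci. Some genes of these sets are no members: Sec63 of the ER, and Hscb and the joined Dnaja3 locus of the mitochondrion. The Dnaja3 locus gave 0.22 (adjusted p = 0.120, limma), a smaller adjusted p than that of any tested member.

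The 6 members printed with a stress element were spread on both sides of 0 in the averaged comparison, and none was called. Estimates were -0.37 for Hsph1, 0.03 for Hspd1, 0.16 for Hspe1 and 0.12 for Dnajb6, which carry the heat shock element of 3 units, and 0.09 for Hspa5 and 0.14 for Dnajc3, which carry the ER element. Dnajb6, a J protein that keeps aggregation-prone chains soluble, stood at 26.5, 23.7 and 23.5 FPKM in male vehicle and 26.7, 30 and 25.3 FPKM in male dexamethasone libraries. Its female values were 26.2, 24.6 and 24.8 FPKM under vehicle and 26.8, 26.2 and 27.7 FPKM under dexamethasone, and the treatments overlapped. Dnajc3 (p58IPK), which assists Hspa5 and inhibits eIF2-alpha kinases, had 16.1, 15.4 and 15.2 FPKM in male vehicle and 16.7, 17.2 and 17.2 FPKM in male dexamethasone libraries. The female libraries had 12.9, 13.3 and 15.6 FPKM and 14.3, 14.6 and 18 FPKM, so that the male groups did not overlap and the female groups did (95% interval of the averaged log2 fold change -0.02 to 0.29, adjusted p = 0.416, limma). The share of loci separated within a sex was not counted. Among other J proteins of the ER, Dnajb11, at 74.8 FPKM over all libraries, gave 0.12 and Dnajb9, at 11.7 FPKM, gave -0.04. Sec63 of the protein translocation channel, which is no member, gave -0.20, the furthest from 0 of the 8 ER genes listed (adjusted p = 0.474, limma).

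The chaperonin genes were at their lowest together in 1 vehicle library, and the estimated effects of treatment on them were small. All 7 tested CCT genes, which encode subunits of 1 ring, had estimates above 0 in the averaged comparison, from 0.01 to 0.12. None was called, the smallest adjusted p being 0.327 (limma). Under median-ratio scaling of the libraries all 7 estimates stayed above 0 (0.01 to 0.12). Without female vehicle library 2, 5 of 7 did (-0.04 to 0.10), and under quantile normalization 1 of 7 (-0.11 to 0.03). Summed over these 7 genes, female vehicle library 2 held 1445 FPKM, female vehicle library 3 held 1636 FPKM and the other libraries up to 1866 FPKM. Hspd1 and Hspe1 together held 405 FPKM in female vehicle library 2, 485 FPKM in female vehicle library 3 and up to 565 FPKM elsewhere. Each of these 9 genes had its lowest value in female vehicle library 2. That library was lowest for 21 of 56 tested members, beside 11.6% of all tested loci, and for 12 of the 14 members at 100 FPKM or more (85.7%), beside 23.7% of 739 protein-coding loci of that level. Without the Hspa8 locus, members took 0.764% of its protein-coding FPKM, the lowest share, and up to 0.920% in the other libraries. Why this library was low was not tested.

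**Figure D4:**
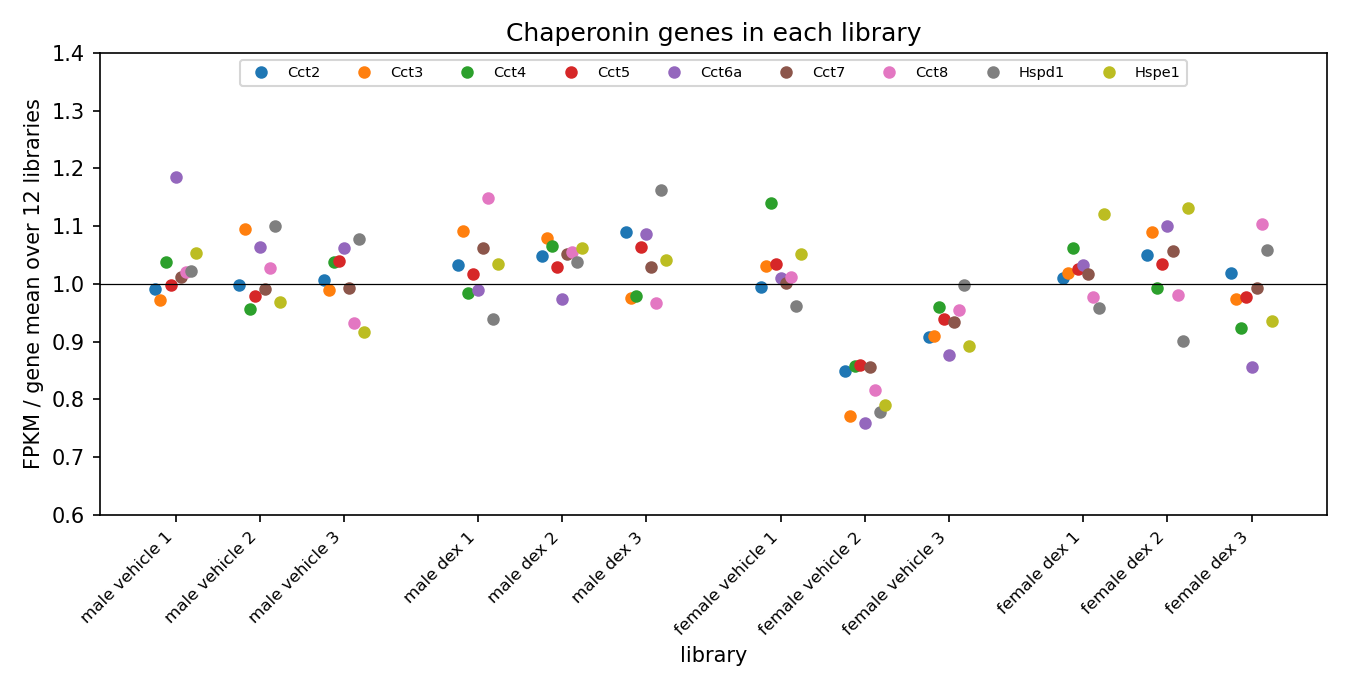
FPKM of the 7 tested CCT genes, Hspd1 and Hspe1 in each library, divided by the gene's mean over the 12 libraries; the axis starts at 0.6 and the line marks the mean. All 9 genes are at their lowest in female vehicle library 2, and all 9 are also below their means in female vehicle library 3.

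Cct2 (chr10:117051001-117063814, minus strand) was the tested member whose treatments separated completely, 1 of 56 beside 1.41% of tested loci, and separation the other way occurred in 0 beside 0.804%. Its vehicle libraries were at 228, 229 and 231 FPKM in males and 228, 195 and 209 FPKM in females. Under dexamethasone they were at 237, 241 and 250.3 FPKM in males and 232, 241 and 234 FPKM in females. The margin was narrow, from 231 FPKM in the highest vehicle library to 232 FPKM in the lowest dexamethasone library. The log2 fold change was 0.12 (95% interval 0.01 to 0.23, adjusted p = 0.327, limma), and it became -0.0025 under quantile normalization. The other CCT estimates were 0.12 for Cct3, 0.11 for Cct8, 0.10 for Cct7, 0.07 for Cct5, 0.03 for the Cct6a locus and 0.01 for Cct4. Of these, Cct3, Cct4, Cct5, Cct6a and Cct8 were below 0 under quantile normalization, and Cct4 and Cct6a also without female vehicle library 2. Hspe1, the lid of the mitochondrial barrel (chr1:55088132-55091307), gave 0.16 (adjusted p = 0.423, limma) with 278 ± 19.6 and 297 ± 4 FPKM in male and 259 ± 37.4 and 302 ± 31.4 FPKM in female vehicle and dexamethasone cultures (SD, n = 3). Hspd1, the barrel itself (chr1:55077835-55088243), gave 0.03, or -0.09 under quantile normalization. The related genes Cct6b and Cct8l1 averaged 0.10 and 0.0441 FPKM.

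Each sex was also compared alone. In males 0 of 56 members were called, beside 0.315% of tested loci, and the smallest adjusted p was 0.692. In females 0 of 56 were called, beside 0.482%, with a smallest adjusted p of 0.489. The unadjusted p was under 0.05 for 1 member in males (Dnajb4; 6.38% of tested loci) and for 2 in females (Cct2 and Dnajb2; 8.02%). A test of whether the effect differed between the sexes called 0 members, beside 0.0335% of loci, and 0 were under an unadjusted p of 0.05, beside 1.47%. Between female and male cultures under vehicle 0 members were called (0.0737% of loci), with 2 at an unadjusted p under 0.05 (4.88% of loci). These were the Cct6a locus, with a female minus male log2 difference of -0.33, and Dnajc4, with 0.36 (adjusted p = 0.892 for both, limma). Cct6a was again at its lowest in female vehicle library 2. Under dexamethasone 0 members were called (0.0670% of loci), and 0 had an unadjusted p under 0.05 (2.94% of loci).

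Partners of these chaperones were examined from lists of Hsp90 machinery, Hsp70 cofactors, chaperonin partners, heat shock factors and small heat shock proteins. Of 12 tested Hsp70 cofactors, 12 chaperonin partners and 3 heat shock factor genes, 0 were called in either direction, beside 1.53% of all tested loci. Their median log2 fold changes were -0.0151, 0.10 and -0.0275. Hsf1, the master factor of the heat shock response, averaged 15.0 FPKM, and its relative Hsf2 averaged 19.3 FPKM. Their estimates were -0.09 and -0.03, and that of Hsbp1, a small inhibitor of heat shock factor, was 0.08 at 253 FPKM. Tcp1 encodes the first subunit of the CCT ring under a name the rule did not reach, and its locus, joined to Gm26130, averaged 630 FPKM and gave 0.21 (adjusted p = 0.537, limma). Prefoldin hands chains to CCT, and the locus of its subunit gene Pfdn5, joined to Myg1, averaged 267 FPKM and gave 0.09. The Hsp70-binding gene St13 (Hip) averaged 198 FPKM and gave -0.03. At the locus of Stub1 (CHIP), a ubiquitin ligase of Hsp70 clients, libraries ranged widely: 61.1 to 1674 FPKM. That locus is joined to the microRNA gene Mir3082, and its estimate of -0.64 had a 95% interval of -3.06 to 1.79. The mean FPKM ran the other way, 615 under vehicle and 727 under dexamethasone, so the sign rests on the log scale. The J protein gene Gak, of clathrin uncoating, gave -0.19.

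Calls occurred in the lists of Hsp90 machinery and of small heat shock proteins, 1 in each. The cytosolic Hsp90 Hsp90ab1, at 1227 FPKM the most abundant gene of these lists, gave -0.08, and the joined locus of its ER counterpart Hsp90b1, at 443 FPKM, gave -0.12. Among 14 tested genes of the Hsp90 machinery 1 rose and 0 fell, beside 1.53% of all tested loci called: Fkbp5, a co-chaperone that lowers the affinity of the receptor for hormone and a standard glucocorticoid target that is also 1 of the 6 known targets listed above. Its male means were 23.1 ± 2.38 FPKM under vehicle and 116 ± 35.7 FPKM under dexamethasone, and its female means 17.4 ± 3.11 and 109 ± 12.7 FPKM (SD, n = 3), an averaged log2 fold change of 2.42 (adjusted p = 1.98e-05, limma). Among 5 tested small heat shock proteins, chaperones that hold unfolded chains without ATP, 1 was called, beside the same 1.53%: Hspb1 (Hsp27), with a log2 fold change of 2.82 (adjusted p = 0.00889, limma). Hspb1 reached the level required for testing only through its dexamethasone libraries, which averaged 10.1 FPKM against 0.323 FPKM under vehicle, so its presence among the tested genes is not independent of the difference. The most abundant genes of that list, Hspb11 (29.0 FPKM) and Cryab (10.7 FPKM), gave 0.06 and 0.28. The vehicle libraries of Hspb1 lay at 0.729 FPKM or less and its dexamethasone libraries between 3.13 and 20.6 FPKM. Fkbp5 and Hspb1 stand outside the Hsp70, DnaJ and chaperonin families.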

How the data were processed

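Total RNA libraries of 12 neurosphere cultures were sequenced on 2 lanes each. The authors deposited FPKM values per locus, on the GRCm38 build. Per the submitters' processing notes the aligner was TopHat2 (2.0.9), followed by Cufflinks (2.2.1) with its Cuffdiff program (2.2.1). For the annotation release, strandedness of counting and library scaling, the settings were not given in the sources used here. Genes that overlap or lie antisense to each other are therefore uncertain, and 930 loci join several genes. FPKM hold no counts, so no counting interval is given and an exact 0 can be a failed estimate.

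The test was limma 3.58.1 (R 4.3.3) on log2(FPKM + 1), with 1 mean per group, contrasts and a trended eBayes, two-sided, and Benjamini-Hochberg adjustment over the 14931 loci averaging 1 FPKM or more. A call is an adjusted p under 0.05. This scale understates the change of low genes. The code was tested on simulated data. Members, gene lists and tests were chosen with earlier results of these data known. Named were a core set of 18 chaperone genes, members called with or without a replicate block, the 8 highest and 8 lowest estimates, and the 5 most abundant members. Genes of other lists were named where called or among their list's 2 most abundant. Hspa12a and the other members with values lie outside that rule. Alternatives were other pseudocounts, no filter, 2 other scalings, protein-coding loci only, a robust variance, a replicate block, only the groups compared, and each library left out. Gene coordinates are GENCODE M21 on GRCm38 and sequences are from RefSeq.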

Additional observations from a re-analysis of the deposited data

How the results depend on the processing

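No member was called under 114 of 114 alternatives for the 5 contrasts other than the averaged effect, and under 20 of 22 for the averaged effect; the exceptions called 1 member each, Hspa12a without a filter and Dnajb4 with the replicate block. Counts over all loci moved more. The averaged effect called 229 loci, but 114 without male vehicle library 3 and male dexamethasone library 2 together, and 146 to 215 with 1 library left out, members staying at 0. The male effect called 47 loci, but 28 without a filter, 19 without those libraries, 21 from the male groups alone and 28 to 49 with 1 library left out. The female effect called 72, but 27 from the female groups alone and 31 to 74 with 1 library left out. The interaction called 5, but 11 without a filter, 1 among protein-coding loci, 8 without those libraries and 4 to 14 with 1 left out. The sex difference called 11 loci under vehicle, but 5 among protein-coding loci, 21 from the vehicle groups alone and 9 to 23 with 1 left out, and 10 under dexamethasone, but 5 among protein-coding loci and 8 to 14 with 1 left out. The cause was not tested.

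Replicate numbers may pair libraries, but the labels do not say so, and correlations of deviations between same-numbered libraries of a sex were 0.0819 to 0.167 (other numbers -0.147 to 0.0338), with 12 of 12 libraries closest to their own number. With the number as a replicate block the averaged effect called 804 loci (420 higher, 384 lower), the male effect 148, the female effect 187 and the interaction 8. The block called Dnajb4 (log2 fold change 0.35, adjusted p = 0.0268) and gave Hspa12a an adjusted p of 0.0624 without a filter.

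Of 636 alternatives for 29 named tested members, 597 kept direction and side of the threshold, 1 was the Dnajb4 call, and 38 turned the sign of an uncalled estimate in 13 members. Under quantile normalization, which moved the median of all loci to -0.00442, these were Cct2 (-0.0025), Cct3 (-0.0304), Cct4 (-0.0933), Cct5 (-0.0608), Cct6a (-0.11), Cct8 (-0.0295), Hspa5 (-0.0301), Hspa9 (-0.0902) and Hspd1 (-0.0935). Without male vehicle library 3 and male dexamethasone library 2 they were Cct4 (-0.0023) and Dnajc15 (-0.0095). With 1 library left out, estimates ran from -0.0398 to 0.0620 for Cct4, -0.0232 to 0.0808 for Cct6a, -0.0509 to 0.0184 for Dnaja1, -0.0198 to 0.0216 for Dnajb1, -0.0351 to 0.0176 for Hspa4, -0.0308 to 0.0549 for Hspa9 and -0.0231 to 0.0696 for Hspd1. The unknown depth limits what can be said of members under 1 FPKM.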
